A study of Mus musculus with 18 samples.

Results

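RAD21 binding was examined at 10 genes that encode parts of the cohesin machinery itself. They were the ring subunits Rad21, Smc3 and Stag1, the loader subunits Nipbl and Mau2, the regulators Wapal, Pds5a and Pds5b, the acetyltransferase Esco1, and Ctcf. These are 10 of the 22367 protein-coding genes of the GENCODE M1 annotation on mouse genome assembly mm9. A RAD21 peak was assigned to a gene when its centre lay in the gene body or within 20 kb of it, and overlapping peaks (1 bp or more) from several lists were counted as 1 site. In all, 11 of the 18957 sites of the series lay at these genes. The question was whether cohesin is found at the genes of its own machinery, and in which B cell stage.

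RAD21 was immunoprecipitated (ChIP-seq, antibody enrichment of crosslinked chromatin followed by sequencing) from purified splenic B cells of C57BL/6 mice (C57BL/6J in the methods of the study), 8 to 10 weeks of age. The cells were resting (0 h), or were cultured with LPS and IL-4, which activate B cells and induce switching to IgG1, for 48 h or for 96 h. Each time point had 3 replicates, each made from cells pooled over several mice, and 1 further peak list called on the merged reads of its 3 replicates, termed pooled here. The 9 input libraries entered only through the peak calling by the authors, and no genetic change was present in any group. At the late time point, IgG1-positive cells had been enriched, so that time in culture and this purification cannot be told apart. B cell markers could not be checked, since a list of peaks holds no expression.

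Cohesin is a ring-shaped protein complex that embraces DNA. It holds sister chromatids together until mitosis and extrudes loops of chromatin in interphase. The NIPBL-MAU2 loader places it on DNA and the WAPL and PDS5 proteins promote its release. Acetylation of SMC3 by ESCO1 stabilises it. The zinc finger protein CTCF, which recognises a long asymmetric DNA motif, halts it at fixed places, so that most strong RAD21 peaks of mammalian genomes lie on CTCF motifs.

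The sequences at the sites are shown because they carry the feature that most of these sites shared. The motif used, 20 bases long, was built on 935 sites found in 6 or more of the 9 replicates and lying outside the windows of the 10 genes. Its consensus, read on both strands, was NCCACNAGNNGGCNNNNNNN, the known form of the CTCF motif. Each stretch is given 5′ to 3′ on the named strand of mm9, with the 20 bases that matched the motif best in capitals. At the sites in untranslated exons, in exon 1 of Stag1 and exon 2 of Pds5a, the matching bases alone are given.
Ctcf site 1, chr8:108146445-108146504, plus strand: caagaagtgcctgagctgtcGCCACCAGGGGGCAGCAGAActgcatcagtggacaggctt
Ctcf site 2, chr8:108209776-108209835, minus strand: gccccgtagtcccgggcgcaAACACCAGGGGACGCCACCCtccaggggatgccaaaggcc
Stag1 site 1, chr9:100543991-100544010, plus strand: GCCAGCAGAGGGCGGTCGGG
Smc3 site 1, chr19:53674378-53674437, plus strand: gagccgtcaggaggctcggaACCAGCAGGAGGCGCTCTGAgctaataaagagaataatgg
Smc3 site 2, chr19:53723378-53723437, plus strand: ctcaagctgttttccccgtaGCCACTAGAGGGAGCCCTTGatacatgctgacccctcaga
Nipbl site 1, chr15:8401198-8401257, plus strand: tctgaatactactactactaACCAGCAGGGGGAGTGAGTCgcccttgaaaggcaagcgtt
Pds5a site 1, chr5:66088165-66088184, minus strand: ACCGATAGAGGCCGGTAGAG
The next stretch is a whole peak of replicate 2 of 48 h-stimulated B cells, with a run of 29 bases of the repeated unit AGTC in capitals.
Pds5a site 2, chr5:66043542-66043599, plus strand: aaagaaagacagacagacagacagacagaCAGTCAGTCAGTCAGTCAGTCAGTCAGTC

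The lists differed in length and 1 of them stood apart. The replicates held between 821 and 8579 peaks, and the pooled lists 5690, 5579 and 12806 peaks at 0 h, 48 h and 96 h. In replicate 2 of 48 h-stimulated B cells, 8.98% of the sites were shared with another replicate, against 64.5 to 97.4% in the other 8 replicates, and its median peak was 65 bp wide, against 151 to 212 bp. How many reads made up a peak cannot be read from the lists, so each peak is described by the percentile of its score within its own list, where 100 is the highest score.

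Of the 10 genes, 7 had a peak of at least 1 of the 12 lists in their window, and Rad21, Wapal and Esco1 had none. Among all protein-coding genes this share was 55.3%. An annotated transcript start lay within 1 kb of a site at 3 of the 10 genes (Smc3, Stag1 and Pds5a), against 6.09% of all genes. Any transcript start counted, so a gene with more starts had more chances. Stag1, with 17 transcripts, counted only through starts inside the gene. A site inside the gene body was present at 2 of the 10 (Stag1 and Pds5a), against 22.9% of all genes. Ctcf alone had peaks in 6 or more replicates, against 6.29% of all genes. Of the 11 sites, 4 lay upstream of the gene, 4 past its end, 2 in an exon and 1 in an intron. No test was made on these shares, because the genes were few and of unequal length. The median gene length was 60.2 kb over the 10 genes and 15.4 kb over all genes, and a longer window has more room for a site.

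**Figure D1:**
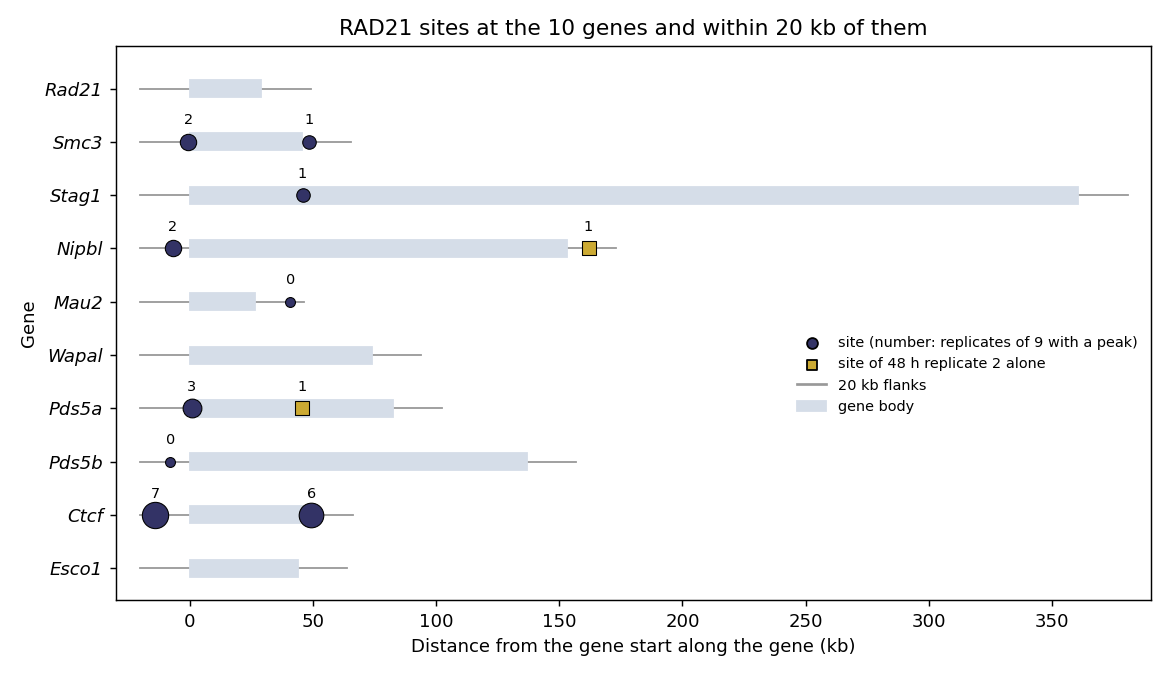
Position of the 11 RAD21 sites along the 10 genes, as distance in kb from the annotated gene start in the direction of transcription. Blue boxes are gene bodies, grey lines the 20 kb flanks, and the number over each site is the number of the 9 replicates with a peak. The sites of Ctcf, with 7 and 6 replicates, stand outside the gene on both sides, and Rad21, Wapal and Esco1 have no site.

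Ctcf, which encodes the protein that positions cohesin, was the gene with the most replicate peaks. Its 2 sites lay on both sides of the gene, 13978 bp upstream of the start (site 1, chr8:108146316-108146664) and 2969 bp past the end (site 2, chr8:108209656-108209926), and none lay within its 46.4 kb body. Both are close to a neighbour, since site 1 lay 396 bp past the end of Fam65a and site 2 383 bp upstream of the start of Rltpr. Which gene a site serves was not measured.

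Ctcf site 1 had a peak in 7 of the 9 replicates. Its score percentiles were 97.6, 87.9 and 70.9 in the 3 replicates of resting B cells and 98.2 in the resting pooled list. At 48 h a peak was found in replicate 3 alone, at percentile 12.96, and in the pooled list at 48.4. At 96 h the percentiles were 63.1, 40.4 and 41.4, and 66.9 in the pooled list. The 3 resting replicates had higher percentiles than the 4 stimulated replicates with a peak here. Replicates 1 and 2 at 48 h had no peak and so no rank, and the lists behind the percentiles differed in length. No test was made of this order.

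Ctcf site 2 had a peak in 6 of the 9 replicates. In resting B cells it was at percentile 24.3 in replicate 1 and 74.1 in replicate 3, had no peak in replicate 2, and stood at 81.8 in the pooled list. At 48 h it was found in replicate 1 alone, at 33.8, and in the pooled list at 59.9. At 96 h the percentiles were 87.9, 56.3 and 64.0, with 90.2 in the pooled list. The ranks of resting and 96 h replicates overlapped here. Both sites of Ctcf were present in all 3 pooled lists, a property of 12.6% of all sites, and in at least 6 replicates, a property of 4.94% of all sites. None of the other 9 sites had either property.

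**Figure D2:**
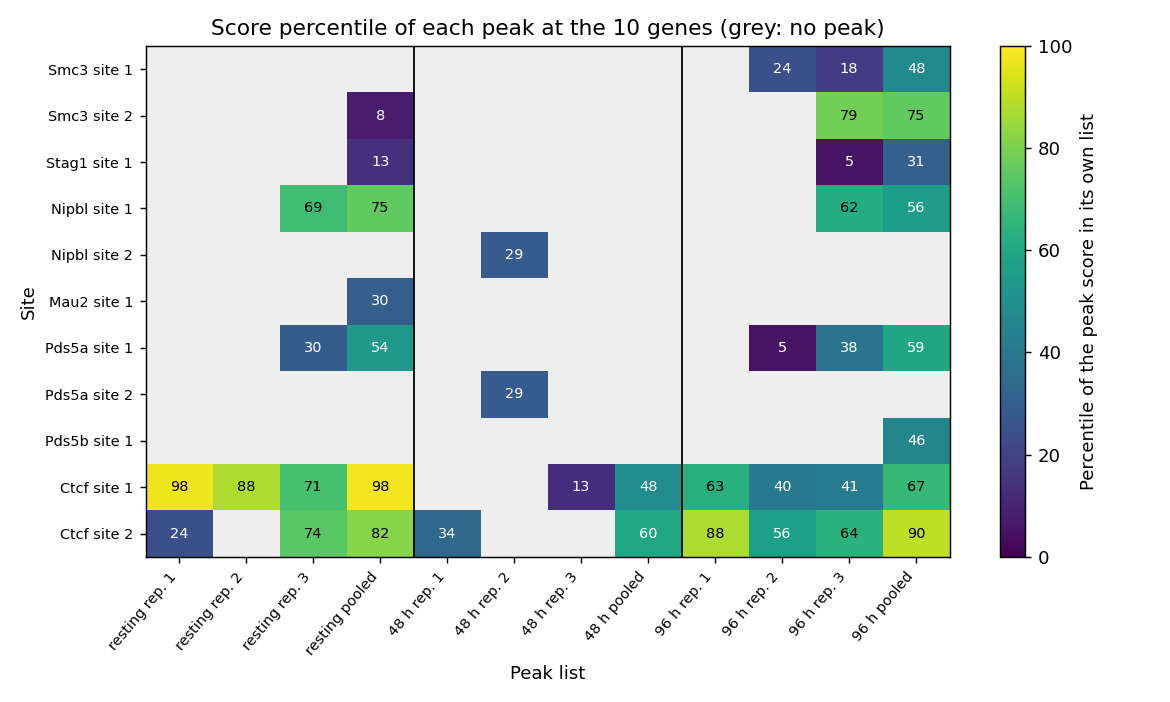
Score percentile of every peak at the 11 sites (rows) in the 12 peak lists (columns), where colour and number give the rank of the score within its own list and grey marks the absence of a peak. Both sites of Ctcf are filled in most columns, the column of replicate 2 at 48 h holds only 2 sites that no other list has, and most of the remaining sites are filled in replicate 3 of resting or 96 h-stimulated B cells and in their pooled lists.

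Among the ring subunits, Rad21, the kleisin that closes the ring and the protein immunoprecipitated here, had no peak of any list in its window of 69.2 kb. The nearest sites lay 50.7 kb past its end, with a peak in 2 replicates and all 3 pooled lists, and 169 kb upstream of its start, also with a peak in 2 replicates.

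Smc3, one of the ATPase arms of the ring, had 2 sites that framed the gene. Site 1 (chr19:53674298-53674490) lay 492 bp upstream of the start, within 1 kb of the starts of 2 of its 4 annotated transcripts. It was found only at 96 h, in replicate 2 at percentile 24.3, in replicate 3 at 17.8 and in the pooled list at 47.6. Site 2 (chr19:53723306-53723573) lay 3116 bp past the end of the gene. It was found in replicate 3 at 96 h at percentile 78.8, and in the pooled lists at 75.4 for 96 h and at 8.12 for resting B cells. The promoter site therefore stood low in its lists, and the downstream site stood high at 96 h.

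Stag1, a HEAT-repeat subunit that bridges the ring to CTCF, is the longest of the genes at 361 kb and had a single site (chr9:100543954-100544123). It lay 45821 bp inside the annotated gene, but 3 bp from a transcript start, and 11 of the 17 transcripts of Stag1 start within 1 kb of it. In the coding transcripts it overlapped exon 1, which is untranslated there. It was found in replicate 3 at 96 h at percentile 5.30, and in the pooled lists at 13.4 for resting and 30.7 for 96 h-stimulated B cells. It was thus among the weaker peaks wherever it was called.

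Of the loader genes, Nipbl, the large subunit that stimulates cohesin's ATPase, had a site 6770 bp upstream of its start (chr15:8401096-8401371). This site was present in replicate 3 of resting B cells at percentile 69.0 and in replicate 3 at 96 h at 62.0, and in both of these pooled lists, at 75.5 and 55.7. The other site of Nipbl, 8663 bp past its end, was 58 bp wide and was found only in replicate 2 at 48 h, at percentile 28.6. Mau2, the partner of Nipbl in the loader, had 1 site (chr8:72525685-72525825), 14267 bp past its end, which was called only in the resting pooled list at percentile 30.2. This site had no peak in any replicate, and it lay nearer to the start of Gatad2a, at 5477 bp.

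Among the regulators, Pds5a, a scaffold on which cohesin release and acetylation depend, had the promoter site with the most replicates. Site 1 (chr5:66088050-66088266) lay 937 bp inside the gene start and overlapped the untranslated exon 2 of both annotated transcripts. It was found in replicate 3 of resting B cells at percentile 29.5, and at 96 h in replicate 2 at 5.26 and replicate 3 at 38.3. The pooled lists held it at 54.2 for resting and 58.9 for 96 h-stimulated B cells. Pds5a site 2, in intron 11, was found in replicate 2 at 48 h alone, at percentile 28.6, and is the repeat printed above. Pds5b, its paralog, had 1 site (chr5:151468337-151468524), 7.88 kb upstream of its start, which was called only in the 96 h pooled list at percentile 45.6. It lay 243 bp upstream of the start of N4bp2l2.

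Wapal, which encodes the release factor WAPL, had no site in its window. The nearest site lay 21.1 kb past its end, just outside the 20 kb limit, with a peak in 1 replicate and all 3 pooled lists. Another lay 56.9 kb upstream of its start, with a peak in 3 replicates. Esco1 had no site either, and its nearest lay 34.7 kb past its end, with a peak in 4 replicates and all 3 pooled lists. With a flank of 50 kb in place of 20 kb, 19 sites were assigned to the 10 genes.

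At the level of whole genes, 6 of the 10 genes had a resting pooled peak (Smc3, Stag1, Nipbl, Mau2, Pds5a and Ctcf), against 26.5% of all protein-coding genes. At 48 h Ctcf alone had one, against 20.8% of all genes. At 96 h the count was 6 again (Smc3, Stag1, Nipbl, Pds5a, Pds5b and Ctcf), against 47.6% of all genes. There is 1 pooled list per time point, so these counts have no replicate check. The 48 h pooled list was called on merged reads that included those of replicate 2, whose own list stood apart. Its median peak was 101 bp wide, against 205 bp at 0 h and 215 bp at 96 h. Of its peaks, 66.1% lay in the windows of all protein-coding genes, against 79.5% and 78.4%. Whether this lowered the 48 h count was not tested. When a pooled peak had to be overlapped by a peak of at least 1 replicate of its time point, the counts were 3, 1 and 5 genes at 0 h, 48 h and 96 h, against 20%, 15.1% and 38.3% of all genes. With at least 2 replicates they were 1, 0 and 3, against 9.92%, 3.87% and 22.8% of all genes. With the 96 h pooled list limited to its 5579 highest scores, 3 of the 10 genes had a peak, against 26.7% of all genes.

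**Figure D3:**
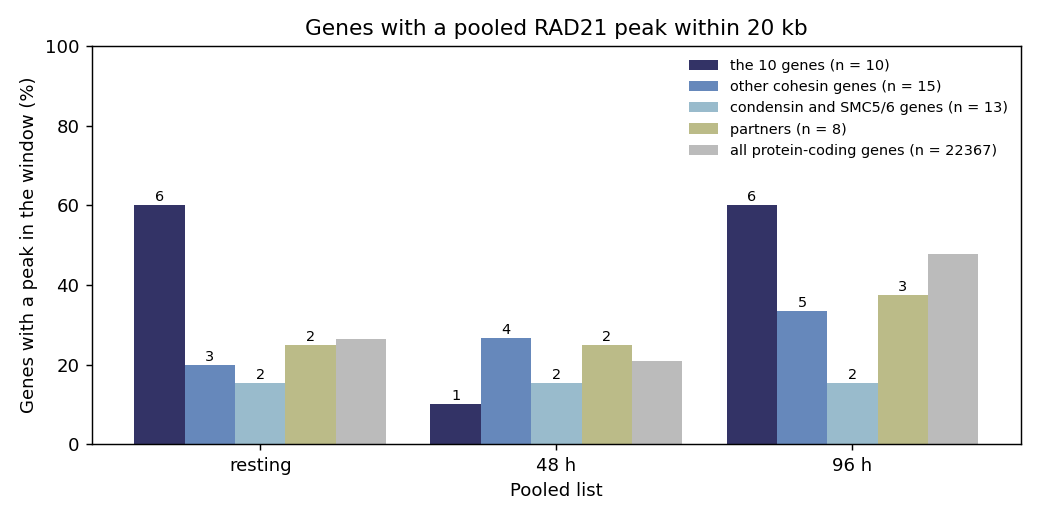
Percent of the genes of each list with a pooled RAD21 peak in the gene body or within 20 kb (bars, with the number of genes above them for the small lists) in resting, 48 h-stimulated and 96 h-stimulated B cells. The 10 genes stand at 6, 1 and 6 genes, and grey bars give the share of all 22367 protein-coding genes. The 48 h pooled list includes the reads of replicate 2, whose own list stood apart.

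Related genes gave other counts. Of 15 other cohesin genes, 3, 4 and 5 had a pooled peak at 0 h, 48 h and 96 h. These 15 include the ring subunits Smc1a and Stag2, the meiotic subunits, the shugoshins, separase and the cofactors Esco2 and Hdac8. Neither Smc1a nor Stag2 had a pooled peak at any time point, and Stag2 had a peak in 1 replicate, at 48 h. Of 13 condensin and SMC5/6 genes, 2 had a pooled peak at each time point. Of 8 genes for partners of CTCF and cohesin on chromatin the number was 2, 2 and 3. The shares of all protein-coding genes were 26.5%, 20.8% and 47.6% at 0 h, 48 h and 96 h, and no test was made between the lists. Genes were also matched by the presence or absence of a peak in each of the 9 replicates. Smc3 was matched in all 9 by Maz, and Stag1 in all 9 by Patz1, both zinc finger genes. Most of this agreement was shared absence, as Smc3 and Maz shared a peak in 2 replicates and Stag1 and Patz1 in 1. Nipbl and Pds5a matched in 8 of 9 and shared a peak in 3, or in 7 of 8 with 2 shared when replicate 2 at 48 h was left out. Among the genes compared, those most like Ctcf were Ctcfl, its germline paralog, and Top2b, a topoisomerase that works at loop anchors, each matching in 7 of 9. With so few peaks these matches are descriptions.

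Per length of sequence, the windows of the 10 genes, 1.40 Mb in all, held 7.86 sites per Mb, against 9.60 in the windows of all protein-coding genes and 7.41 over the genome. Without the sites of replicate 2 at 48 h alone, the density was 6.43 at the 10 genes and 8.59 at all genes. Sites with a peak in at least 6 replicates numbered 1.43 per Mb at the 10 genes, all of them the 2 sites of Ctcf, against 0.519 at all genes. In the pooled lists the densities at the 10 genes were 5.00, 1.43 and 5.72 per Mb at 0 h, 48 h and 96 h, against 3.22, 2.61 and 7.15 at all genes. The 48 h values come from the pooled list that includes the reads of replicate 2.

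The number of the 11 sites with a peak in each replicate was 2, 1 and 4 in resting B cells, 1, 2 and 1 at 48 h, and 2, 4 and 7 at 96 h. The means were 2.33 ± 1.53, 1.33 ± 0.577 and 4.33 ± 2.52 (SD, n = 3 each). The groups overlapped, and an exact permutation test, which compares the F statistic with that of all 1680 ways to arrange the 9 replicates, gave p = 0.186, which does not pass the threshold of 0.05. Without replicate 2 at 48 h, the exact permutation p was 0.175. The second longest list, replicate 2 at 48 h with 5254 peaks, had 2 sites, which no other list held. In the other replicates the number never fell as the lists grew longer. It was 1 at 821, 1538 and 1563 peaks, and 2 at 2097 and 2807 peaks. It was 4 at 3578 and 4552 peaks, and 7 at 8579 peaks, in replicate 3 at 96 h. Whether list length set these numbers was not tested.

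As a share of all peaks of a replicate, peaks at the 10 genes made up 0.0954, 0.122 and 0.112% in resting B cells. At 48 h the shares were 0.0650, 0.0381 and 0.0640%. At 96 h they were 0.0713, 0.0879 and 0.0816%. The 3 groups did not overlap, with resting highest and 48 h lowest. The means were 0.110 ± 0.0133%, 0.0557 ± 0.0153% and 0.0802 ± 0.00839% (SD, n = 3 each), and the exact permutation test gave p = 0.00357, the smallest that this design allows (0.0107 after Benjamini-Hochberg adjustment over 3 such tests).

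This difference rests on 1 to 7 peaks per replicate and on Ctcf. The 10 genes were also chosen with earlier results of these data known, a choice that the adjustment does not cover. The exact binomial 95% interval, which covers counting error only, ran from 0.00308 to 0.677% in replicate 2 of resting B cells and from 0.0328 to 0.168% in replicate 3 at 96 h, so the intervals of the groups overlapped. Without Ctcf the exact permutation p was 0.571, and the remaining 9 genes had 0, 0 and 2 sites in the resting replicates, 0, 2 and 0 at 48 h and 0, 2 and 5 at 96 h. Without replicate 2 at 48 h, the exact permutation p for the 10 genes was 0.0107. With flanks of 5 kb or 50 kb, or with each replicate limited to its 821 highest-scoring peaks, the test no longer passed (exact permutation p = 0.557, 0.468 and 0.679).

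Between pairs of time points the mean share at the 10 genes differed by -0.0540 percentage points (48 h minus resting), -0.0294 (96 h minus resting) and 0.0246 (96 h minus 48 h). Without replicate 2 at 48 h, the differences with 48 h were -0.0452 from resting B cells and 0.0157 from 96 h (adjusted exact permutation p = 0.15 and 0.2). With all 9 replicates, each of the 3 differences had an exact permutation p of 0.1 (two-sided, also 0.1 after adjustment over the 3 pairs), the smallest that 3 replicates against 3 can give. The share of peaks in the windows of all protein-coding genes was lowest at 48 h as well. It was 79.6 ± 0.642% in resting B cells, 68.5 ± 14.2% at 48 h and 79.4 ± 0.350% at 96 h (SD, n = 3 each; exact permutation p = 0.025, adjusted 0.0375), with 77.6, 52.1 and 75.8% in the replicates at 48 h. The lowest value was that of replicate 2, the list that stood apart. Without it, the 48 h mean was 76.7% (n = 2), and the exact permutation p was again 0.025.

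**Figure D4:**
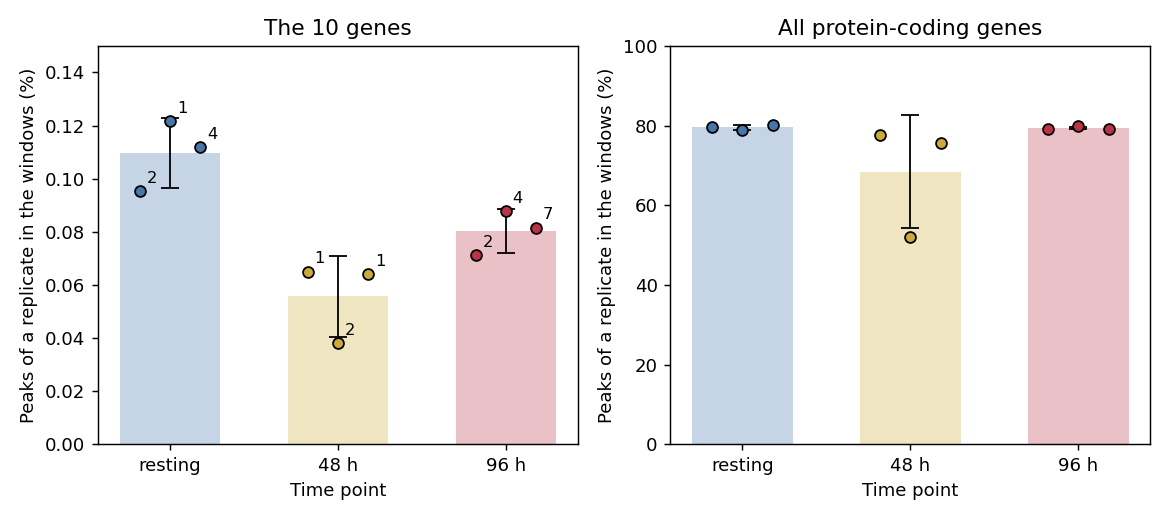
Percent of the peaks of each replicate in the windows of the 10 genes (left, with the number of peaks beside each point) and of all protein-coding genes (right). Points are replicates, bars the means and error bars the SD of 3 replicates. On the left the 3 time points do not overlap but each point rests on 1 to 7 peaks, and on the right replicate 2 at 48 h lies at 52.1% while the other replicates lie between 75.8 and 80.2%.

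At single sites, no site of the genome passed Fisher's exact test between time points, adjusted or not, since its smallest p was 0.1, and the smallest p at a site of the 10 genes was 0.4. Of the 11 sites, 0 had a peak in every replicate of 1 time point and in none of another, a pattern held by 5.84% of all sites.

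The motif was matched at 9 of the 11 sites, or 81.8% (exact binomial 95% interval 48.2 to 97.7%). To count as matched, a site needed 9.49 log2 odds or more within 100 bp of its centre, a level passed by 5.00% of windows 1 kb away from the sites. Of all other sites outside the training set 65.2% had a match. The sites without a match were Nipbl site 2 and Pds5a site 2, both found only in replicate 2 at 48 h, so that all 9 remaining sites had one. Such sites made up 2 of the 11 here and 14.6% of all sites, and 1.37% of them had a match genome-wide, against 76.8% of the sites in other lists. A tandem repeat of at least 20 bases was present at 43.5% of them and at 12.1% of the sites in other lists.

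The strength of the match differed between the genes. Ctcf site 1 had the highest score, 24.5 log2 odds, at percentile 98.9 of all site matches, followed by Stag1 site 1 at 23.2 and Smc3 site 2 at 21.4. The match of Stag1 ranked at percentile 95.4 although its peaks were weak. Smc3 site 1 (16.7), Pds5b site 1 (16.7) and Mau2 site 1 (15.9) had intermediate scores. Ctcf site 2 (12.9), Nipbl site 1 (12.8) and Pds5a site 1 (10.5) had the weakest. At the stricter level that 1% of the windows pass, 3 of the 11 sites had a match, or 27.3% (exact binomial 95% interval 6.02 to 61.0%), against 40.4% of all other sites outside the training set.

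The CTCF motif is asymmetric, so each match has a direction. The match of Ctcf site 1, upstream, lay on the same strand as the gene, and that of site 2, past its end, on the opposite strand. The matches at both ends of Ctcf thus pointed towards each other across the gene. That of site 2 was weak, at percentile 10.0 of all site matches and below the stricter level. Contact between the 2 sites was not measured. Both matches of Smc3 lay on the strand of the gene, as did those of Stag1, Mau2 and Pds5a site 1, whereas those of Nipbl site 1 and Pds5b lay on the opposite strand.

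Strong matches, with at least 17.7 log2 odds, were also counted over the whole windows. There were 36 in the windows of the 10 genes, or 25.7 per Mb, against 19.7 per Mb over the genome. Of these 36, 4 lay in a RAD21 site, or 11.1% (exact binomial 95% interval 3.11 to 26.1%), against 13.7% of the strong matches of the genome. The 4 were 1 at Smc3, 2 overlapping the single site of Stag1 and 1 at Ctcf. The window of Rad21 held no strong match, while those of Wapal and Esco1 held 2 and 4 without a site, and that of Pds5a held 6, none of them in a site. A match in sequence is a description and does not show that CTCF was bound there.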

How the data were processed

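The authors aligned RAD21 ChIP-seq reads of 9 replicates to mm9 with Bowtie 2, thinned every library to the same number of unique positions, and ran MACS 2 with the input as control (false discovery rate 0.05), per replicate and on the merged reads of each time point. The deposited files are 12 lists of peaks with positions and a score, whose statistic is not named in the sources used here. Scores served for ranks within a list (percentile, ties at their middle rank) and for the score minimum of an alternative. Read counts and depth per peak are therefore unknown, and no sample was left out of the main values. The replicates are described as biological.

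Sites, windows, exact permutation tests (two-sided for pairs), Fisher's exact tests and the motif were computed with Python 3.11.15, numpy 2.4.6, scipy 1.17.1 and numba 0.67.0, and the methods were tested on simulated data. Plots were drawn with matplotlib 3.10.9. Gene models were from GENCODE M1, and a promoter was within 1 kb of an annotated start. The motif was a 20-column matrix of log2 odds, scanned on both strands of the mm9 sequence. The members and gene lists were chosen with earlier results of these data known. Named are all 10 genes, their promoter sites, sites in at least 6 replicates and the highest-ranked site of each gene. Nipbl site 2 and Pds5a site 2 fall outside this rule and were named after their values were seen. Alternatives varied the flank, the assignment, merging, score minimum, list length, replicate support, replicate block, the motif's level and each replicate left out.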

Additional observations from a re-analysis of the deposited data

How the results depend on the processing

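The test of the share of peaks at the 10 genes across time points (F = 13.6, exact permutation p = 0.00357) kept its call under assignment by any overlap, protein-coding transcripts alone, the score minimum (F = 8.66, exact permutation p = 0.0393, the weakest) and each replicate left out (F from 8.83 to 17.0, exact permutation p from 0.00357 to 0.0107). It did not pass with the gene body alone (F = 0.323), flanks of 5 kb (F = 0.680) or 50 kb (F = 0.794), lists of equal length (F = 1.5) or without Ctcf (F = 0.448), the last chosen after seeing the data. For the number of sites, the exact permutation test passed only with flanks of 50 kb (F = 7.58, p = 0.0357). The cause of these changes was not tested. The difference between 96 h and 48 h, 0.0246 percentage points, was 0.0157 without replicate 2 at 48 h. The test of the share at all genes kept its call without that replicate, an alternative chosen after seeing the data.

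The 11 sites became 3 with the gene body alone, 6 with flanks of 5 kb, 19 with 50 kb and 5 with scores at or above the median of the list. Without replicate 2 at 48 h, a choice made after seeing the data, 9 sites were left. Of the genes with a pooled peak (6, 1 and 6 at 0 h, 48 h and 96 h), the gene body alone left 2, 0 and 2. Flanks of 50 kb gave 5 at 48 h, the score minimum 3 at 0 h, and equal pooled lists 3 at 96 h. Support by 1 replicate left 3 at 0 h, and by 2 replicates 1, 0 and 3. The share of sites with a motif match, 81.8%, was 27.3% at the stricter level and 100% without the sites of replicate 2 at 48 h alone, also chosen after seeing the data.

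Whether replicate numbers pair the samples was not settled by correlations between replicates of different time points. Of 9 same-numbered pairs, 3 correlated above 0.1 (from -0.259 to 0.314), and pairs of different numbers ranged from -0.348 to 0.340. Of the 9 samples, 5 correlated best with their own number. With the replicate block, the share at the 10 genes gave F = 13.6 with exact permutation p = 0.0278. The number of sites gave exact permutation p = 0.167, and neither call changed. Each pair of time points gave exact permutation p = 0.25, the smallest that 3 replicate blocks allow, so those calls could not change.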
